A study of Mus musculus with 7 samples.

Results

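Control set 1 and control set 2 are the 2 groups of control Kupffer cell libraries in this series, 2 libraries each, and together they make up 4 of the 7 samples. Members were taken by sample title alone: control set 1 holds replicates 1 and 2, and control set 2 holds replicates 7 and 8. All 4 libraries came from untreated male C57BL/6 mice aged 8 weeks that carried loxP-flanked Commd10 alleles (genotype Commd10fl/fl), and the study's design text describes the controls as littermates of the animals in which Clec4f-driven Cre deletes Commd10. The Cre-carrying samples were not used here. The labels do not say what the set number stands for (a sort day, a litter, a library pool), and they do not say whether a library came from 1 mouse or from pooled mice, so p-values measure only the spread between these libraries.

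Kupffer cells are the resident macrophages of the liver sinusoids, where they clear particles, ageing red cells and gut-derived microbial products from the blood. Immediate early genes such as Fos, Jun and Dusp1 are transcribed within minutes of a stimulus without new protein synthesis. NF-kB is a family of transcription factors held in the cytoplasm by IkB inhibitors. On activation it drives cytokine genes such as Tnf and chemokine genes such as Ccl3 and Ccl4, together with Nfkbia, which encodes the inhibitor IkB-alpha. Hepatocyte transcripts such as Alb come from the parenchymal cells of the liver, which the gate leaves out, and ribosomal protein transcripts are short, abundant mRNAs found in every cell.

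The cells were gated as CD45+, CD11b low, F4/80+, Ly6G- and Ly6C- with the Kupffer markers TIM4, VSIG4, CLEC2 and CLEC4F, and their RNA entered a bulk MARS-Seq protocol, which reads the 3′ ends of polyadenylated RNA with molecular identifiers. Totals were 4270240 and 3207144 counts in control set 1, against 230942 and 267553 counts in control set 2, a pooled ratio of 15.0. Depth and set therefore cannot be told apart by design. The table listed 10550 genes, of which 10533 and 10473 were counted in the control set 1 libraries, against 8089 and 8231 in the control set 2 libraries. At an equal depth of 230942 counts, the expected number of genes was 8873 and 8754 in control set 1, against 8089 and 8049 in control set 2. The 20 most abundant genes took 19.0% and 18.8% of counts in control set 1, against 22.2% and 21.1% in control set 2. Levels are given as CPM, counts scaled to 1e+06 per library after TMM adjustment of the library total. On that scale a floor of 3 counts was 0.670 and 0.895 CPM in control set 1, against 13.55 and 11.77 CPM in control set 2.

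Kupffer cell markers were abundant in all 4 libraries. Clec4f, the Kupffer cell lectin used in the gate, was at 13953 and 12391 CPM in control set 1, against 12875 and 9773 CPM in control set 2. Markers of T and NK cells summed to 46.0 and 66.3 CPM in control set 1, against 40.6 and 51.0 CPM in control set 2. B and plasma cell markers summed to 99.2 and 123 CPM in control set 1, against 81.3 and 114 CPM in control set 2, and neutrophil markers to 198 and 162 CPM in control set 1, against 99.4 and 54.9 CPM in control set 2. Stellate and fibroblast markers summed to 163 and 148 CPM in control set 1, against 366 and 309.9 CPM in control set 2, and monocyte markers to 1082 and 1810 CPM in control set 1, against 772 and 863 CPM in control set 2. These sums rest on few genes. Ecm1 alone was at 147 and 126 CPM in control set 1, against 289 and 302 CPM in control set 2. The 6 other stellate markers counted summed to 16.1 and 22.4 CPM in control set 1, against 76.8 and 7.85 CPM in control set 2. Of these 6, 5 had the higher mean in control set 1. Plac8 and Clec12a made up most of the monocyte sum, and Csf3r and Mmp9 most of the neutrophil sum. The defining monocyte marker Ly6c2 had 8 and 5 counts in control set 1, against 1 and 0 counts in control set 2. The part of these cell types in the results was not tested.

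After a filter on low levels (a mean of 43.3 CPM over the 4 libraries, which is 10 counts in the shallowest library), 3065 genes were tested with edgeR's quasi-likelihood test and 7485 were not. At a Benjamini-Hochberg adjusted p under 0.05 (the rule for a call from here on), 637 genes were called, 20.8% of those tested. Of these, 317 (10.3%) were higher and 320 (10.4%) lower in control set 1, and 282 of the higher and 240 of the lower genes differed by more than 2-fold. Differences are control set 1 minus control set 2 on the log2 scale, with the median of all tested genes at 0.01. Of the higher genes, 126 had a control set 2 mean below the filter, and of the lower genes, 81 had a control set 1 mean below it, so these entered the test through the set in which they were high. Every called gene had sets that did not overlap, but so did 1982 of the 3065 tested genes (64.7%).

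The distance between the sets exceeded the distance between libraries of a set. Across all tested genes the median absolute log2 difference was between 0.58 and 0.63 for the 4 pairs of libraries from different sets, against 0.24 for the control set 1 pair and 0.39 for the control set 2 pair. Low counts widen such values, so the 376 genes averaging 400 CPM or more over the libraries were also taken alone. Between 18.6% and 27.4% of them differed by more than 2-fold in the pairs from different sets, against 2.13% in the control set 1 pair and 1.06% in the control set 2 pair. When control set 1 was thinned at random to the depth of control set 2, 509 genes were called, and 467 of the 637 kept their call and direction. Leaving out control set 1 replicate 1 gave 363 calls and leaving out its replicate 2 gave 318. Without control set 2 replicate 7 and without replicate 8 the counts were 810 and 698.

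**Figure D1:**
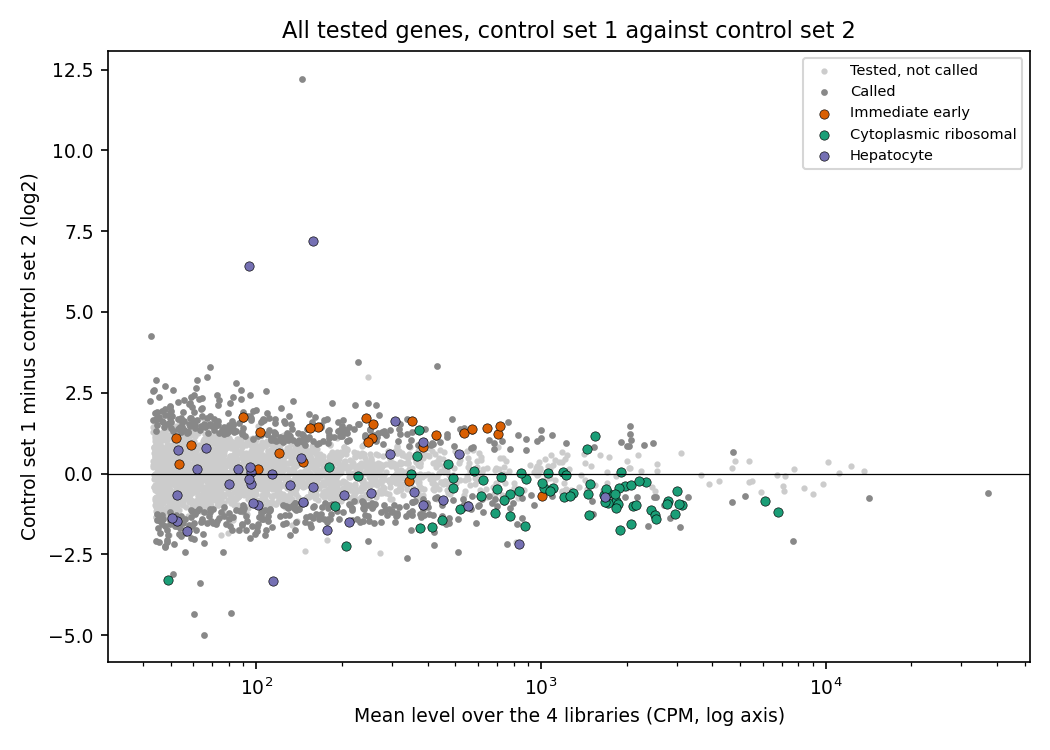
Each point is a tested gene, with its mean level over the 4 libraries in CPM on a log axis against the log2 difference, control set 1 minus control set 2; dark grey points were called and coloured points belong to 3 gene lists. Immediate early genes lie mostly above 0 and ribosomal protein genes mostly below it, and the hepatocyte genes fall on both sides, with Saa1 at 7.18 and Car3 at -3.33. The highest point, Mup8, had 0 counts in control set 2, so its fitted height is no bound.

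The immediate early genes that passed the test were higher in control set 1. Of the 43 genes listed, 39 were in the table and 24 were tested. Of these, 12 were called higher and 0 lower, against 10.3% and 10.4% of all tested genes. The median difference of the tested members was 1.20, and 22 of the 24 had a positive difference. Over the 39 genes in the table, summed levels were 12248 and 8453 CPM in control set 1, against 6462 and 4625 CPM in control set 2. The list's sum was thus highest in control set 1 replicate 1 and lowest in control set 2 replicate 8, and the sets did not overlap. The gap between the 2 control set 1 libraries was wider than that between the nearest libraries of the 2 sets.

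The called members fall into 3 kinds. Among the AP-1 transcription factor subunits, Fos was at 1179.7 and 791 CPM in control set 1, against 438 and 412 CPM in control set 2 (log2 difference 1.21, SE 0.26, adjusted p = 0.0118). Jun was at 448 and 315 CPM in control set 1, against 154 and 109.9 CPM in control set 2 (1.54, SE 0.31, adjusted p = 0.0107). For both genes each control set 1 library lay above each control set 2 library, and replicate 1 was the highest. Jund, which encodes a further Jun family protein, was at 152 and 139 CPM in control set 1, against 76.8 and 43.2 CPM in control set 2.

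The second kind are feedback regulators that shorten signals or mRNA life. Dusp1, a phosphatase that switches off p38 and JNK kinases, was at 1012 and 869 CPM in control set 1, against 321 and 381 CPM in control set 2 (1.42, SE 0.23, adjusted p = 0.00586). Zfp36, which encodes tristetraprolin, a protein that marks cytokine mRNAs for decay, was at 1286 and 826 CPM in control set 1, against 415 and 345 CPM in control set 2 (1.48, SE 0.27, adjusted p = 0.00850). Dusp2, a phosphatase of the same family as Dusp1, was at 165 and 110.1 CPM in control set 1, against 67.7 and 15.7 CPM in control set 2.

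The remaining called members are transcription factors and other early response genes. Klf2, a Krüppel-like factor, was at 829 and 684 CPM in control set 1, against 348 and 282 CPM in control set 2 (1.27, SE 0.24, adjusted p = 0.00937). Mcl1, a BCL2 family survival protein, was at 525 and 659 CPM in control set 1, against 289 and 231 CPM in control set 2 (1.19, SE 0.26, adjusted p = 0.0127). Nr4a1, an orphan nuclear receptor, was at 703 and 355 CPM in control set 1, against 248 and 98.1 CPM in control set 2. Ier2, Sgk1 and Rhob had differences of 1.43, 1.41 and 1.11. Mcl1 was the exception among the genes given by library, with replicate 2 as the higher of the control set 1 libraries.

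The 12 tested members that were not called ran from 1.72 for Atf3 to -0.69 for Gadd45g. Atf3, a stress-induced transcription factor, was at 454 and 284 CPM in control set 1, against 194 and 35.3 CPM in control set 2 (adjusted p = 0.0987). Gadd45g, a stress response gene of the Gadd45 family, was at 896 and 650 CPM in control set 1, against 1441 and 1048 CPM in control set 2 (adjusted p = 0.0698). Its relative Gadd45b had a difference of 1.36, with control set 2 replicates 7 and 8 far apart at 506 and 137 CPM. Junb (0.84), Fosb (0.36) and Ier3 (-0.24) were not called either.

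Low level kept 15 further members out of the test. All 15 had the higher mean level in control set 1, as did 62.2% of the 7485 untested genes, and they summed to 353 and 243 CPM in control set 1, against 113 and 145 CPM in control set 2. Egr1, an early zinc finger factor, had 301 and 98 counts in control set 1, against 1 and 2 counts in control set 2. Of the 24 tested members, 3 had a control set 2 mean below the filter and passed through control set 1; 1 of these, Dusp2, was called.

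The count moved with the libraries and settings used. Without control set 1 replicate 1, the library with the highest summed level, 6 members were called higher and 1 lower, and the median difference of the tested members was 0.87. Of the 12 called members, 6 kept their call whichever of the 4 libraries was left out (Fos, Jun, Klf2, Zfp36, Dusp1 and Mcl1), 10 kept it when control set 1 was thinned, and 9 kept it after an offset for 3′-end GC content and transcript length chosen after seeing the data. Jun, Klf2, Zfp36, Dusp1 and Mcl1 kept it under all 14 alternatives.

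**Figure D2:**
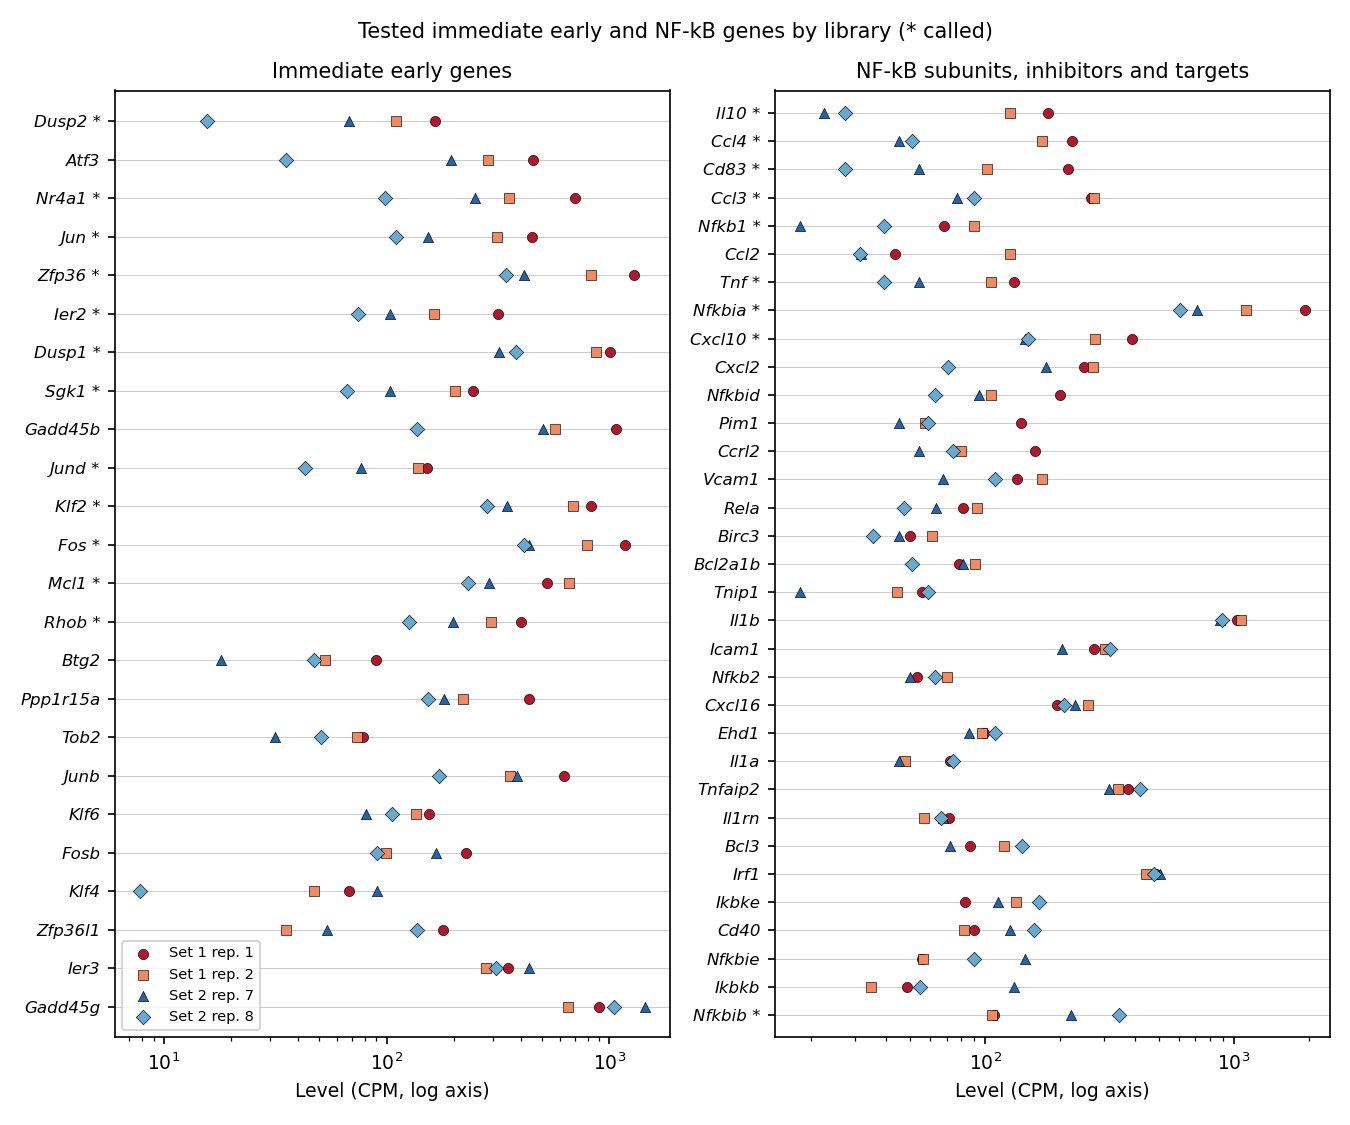
Levels in CPM on a log axis for each tested immediate early gene (left) and NF-kB gene (right); each symbol is a library, control set 1 in reds and control set 2 in blues, and an asterisk marks a called gene. Genes run from the highest log2 difference at the top to the lowest at the bottom, so Dusp2 heads the left panel and Nfkbib ends the right panel.

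NF-kB targets that passed the test were higher in control set 1, and the called NF-kB subunits and inhibitors went both ways. Calls made up 28.6% of the tested targets and 25.0% of the tested subunits, kinases and inhibitors, against 20.8% of all tested genes. Of 40 listed targets, 33 were in the table and 21 were tested. Of these, 6 were called higher (10.3% of all tested genes were) and 0 lower, with a median difference of 0.76 and 15 of 21 positive. Of 24 listed subunits, kinases and inhibitors, 21 were in the table and 12 were tested. Of these, 2 (16.7%) were called higher and 1 (8.33%) lower, with a median of 0.24, or -0.13 without control set 2 replicate 7. Without control set 2 replicate 8, 2 were called higher and 3 lower. No subunit or inhibitor was called higher with limma-voom or after the 3′-end GC and length offset chosen after seeing the data, which called 1 and 2 lower. Summed levels of the targets were 5083 and 4815 CPM in control set 1, against 3423 and 3617 CPM in control set 2.

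Among the subunits, Nfkb1, which encodes p105 and p50, was at 68.2 and 90.1 CPM in control set 1, against 18.1 and 39.2 CPM in control set 2 (1.43, SE 0.45, adjusted p = 0.0462). Rela, the p65 subunit, had a difference of 0.66 (adjusted p = 0.203) and Nfkb2, which encodes p100 and p52, had 0.13 (adjusted p = 0.832). Nfkb1 passed the filter only through control set 1 and kept its call under only 4 of 14 alternatives.

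Among the inhibitors, 1 was called higher and 1 lower. Nfkbia was at 1922 and 1119.9 CPM in control set 1, against 714 and 608 CPM in control set 2 (1.20, SE 0.27, adjusted p = 0.0152), and it lost its call with limma-voom and after the 3′-end offset. Nfkbib, which encodes IkB-beta, was at 108 and 107 CPM in control set 1, against 221 and 345 CPM in control set 2 (-1.40, SE 0.29, adjusted p = 0.0110). Nfkbie, which encodes IkB-epsilon, was not called (-1.05, adjusted p = 0.0532), nor was Ikbkb, the kinase that phosphorylates the inhibitors (-1.13, adjusted p = 0.0813), nor Nfkbid, an atypical nuclear IkB (0.97, adjusted p = 0.112). Nfkbib overlaps exons of Sirt2 and Ccer2 on the opposite strand, and whether the counting used strand is not given in the sources used here.

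The called targets were cytokine, chemokine and activation genes. Of the 21 tested targets, 3 had a control set 2 mean below the filter and passed it only through control set 1, and 2 of these, Il10 and Cd83, are among the 6 called. Il10, an anti-inflammatory cytokine, was at 178 and 125 CPM in control set 1, against 22.6 and 27.5 CPM in control set 2 (2.59, SE 0.42, adjusted p = 0.00572). Ccl4, a chemokine, was at 223 and 169 CPM in control set 1, against 45.2 and 51.0 CPM in control set 2 (2.02, SE 0.34, adjusted p = 0.00689). Ccl3, a chemokine encoded beside it, was at 266 and 274 CPM in control set 1, against 76.8 and 90.2 CPM in control set 2 (1.69, SE 0.29, adjusted p = 0.00745). In these 3 genes the sets were far apart relative to the spread within either set.

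Cd83, a surface activation marker, was at 215 and 102 CPM in control set 1, against 54.2 and 27.5 CPM in control set 2 (1.98, adjusted p = 0.0218). Tnf was at 130.3 and 106 CPM in control set 1, against 54.2 and 39.2 CPM in control set 2 (1.35, adjusted p = 0.0287). Cxcl10, a chemokine that interferon also induces, was at 389 and 277 CPM in control set 1, against 145 and 149 CPM in control set 2 (1.18, adjusted p = 0.0204). Il10, Ccl3 and Ccl4 kept their calls whichever library was left out, while Cd83, Tnf and Cxcl10 lost theirs without control set 1 replicate 1. Tnf also lost its call without control set 1 replicate 2 and without control set 2 replicate 8.

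Other targets showed no such separation. Il1b, the inflammasome-processed cytokine, was at 1024 and 1072 CPM in control set 1, against 881 and 894 CPM in control set 2 (0.24, SE 0.20, adjusted p = 0.415). Irf1 had a difference of -0.08 and Tnfaip2 of -0.04. Among the 12 targets in the table below the filter, 10 had the higher mean level in control set 1, as did 62.2% of all 7485 untested genes.

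Promoters were read for the early and NF-kB list members called higher in control set 1, so their shared direction comes from the selection. RefSeq windows of 250 bases before to 50 bases after the annotated start (GRCm38.p6) existed for 15 of the 20 members called higher on the 3 lists. Each was searched on both strands for a cyclic AMP response element (CRE, TGACGTCA), an AP-1 site (TGANTCA), an NF-kB site (GGG, any 2 bases, then TTTCC) and the CArG box bound by serum response factor. In all 27025 windows the motif was present in 1.88% for CRE, 7.93% for AP-1, 1.62% for NF-kB and 1.57% for CArG. In the 2416 windows of tested genes the shares were 3.39%, 5.5%, 1.66% and 1.37% for the same motifs. Of the 15 windows, 5 held a motif; they are printed here 5′ to 3′ on the gene's strand with the match in capitals. The match lies 143 bases upstream of the start in Dusp1 (CRE), 58 bases upstream in Zfp36 (CArG), 28 bases upstream in Mcl1 (NF-kB), 29 bases upstream in Nfkbia (NF-kB) and 74 bases upstream in Cxcl10 (AP-1), counted to its first base. The windows are chr17:26508423-26508722 (minus strand) for Dusp1, chr7:28379179-28379478 (minus strand) for Zfp36, chr3:95658471-95658770 (plus strand) for Mcl1, chr12:55492598-55492897 (minus strand) for Nfkbia and chr5:92348840-92349139 (minus strand) for Cxcl10.
Dusp1: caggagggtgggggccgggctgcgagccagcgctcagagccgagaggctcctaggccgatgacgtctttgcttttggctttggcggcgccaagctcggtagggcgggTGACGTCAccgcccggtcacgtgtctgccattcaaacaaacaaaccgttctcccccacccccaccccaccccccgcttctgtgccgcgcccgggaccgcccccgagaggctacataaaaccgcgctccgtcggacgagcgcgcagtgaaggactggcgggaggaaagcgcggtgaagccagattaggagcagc
Zfp36: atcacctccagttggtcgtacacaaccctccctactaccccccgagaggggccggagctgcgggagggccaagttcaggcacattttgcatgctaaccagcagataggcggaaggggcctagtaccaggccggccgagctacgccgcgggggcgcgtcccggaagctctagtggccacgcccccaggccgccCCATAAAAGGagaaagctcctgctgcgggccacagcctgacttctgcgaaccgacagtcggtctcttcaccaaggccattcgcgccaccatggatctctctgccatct
Mcl1: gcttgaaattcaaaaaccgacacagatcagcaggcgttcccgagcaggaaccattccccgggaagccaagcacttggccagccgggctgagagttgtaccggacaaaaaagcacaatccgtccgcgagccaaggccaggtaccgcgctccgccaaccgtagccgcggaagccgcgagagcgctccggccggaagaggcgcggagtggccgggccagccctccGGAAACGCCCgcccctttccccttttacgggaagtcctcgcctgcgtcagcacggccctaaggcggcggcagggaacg
Nfkbia: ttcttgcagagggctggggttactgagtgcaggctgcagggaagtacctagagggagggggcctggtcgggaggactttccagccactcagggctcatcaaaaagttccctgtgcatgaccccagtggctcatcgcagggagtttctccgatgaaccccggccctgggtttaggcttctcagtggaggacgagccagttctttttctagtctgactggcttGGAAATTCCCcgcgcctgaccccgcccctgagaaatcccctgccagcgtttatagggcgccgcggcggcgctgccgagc
Cxcl10: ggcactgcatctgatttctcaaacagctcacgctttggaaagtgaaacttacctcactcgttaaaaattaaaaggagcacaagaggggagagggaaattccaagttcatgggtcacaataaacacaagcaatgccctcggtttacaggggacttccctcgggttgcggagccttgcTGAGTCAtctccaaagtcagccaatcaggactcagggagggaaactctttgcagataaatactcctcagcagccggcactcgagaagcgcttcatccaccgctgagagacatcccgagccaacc
A match describes letters in a window and shows no binding. Each search used a fixed pattern, so sites spelled otherwise, for NF-kB too, stay in lower case. A window without a match may therefore still hold a site. Over all genes called higher in control set 1, the 242 windows held a CRE in 3.31%, an AP-1 site in 4.96%, an NF-kB site in 2.48% and a CArG box in 1.24%. The 254 windows of genes called lower gave 3.15%, 5.51%, 1.18% and 1.18% for the same motifs.

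More of the tested hepatocyte genes were called lower than higher in control set 1. Of 63 listed genes, 58 were in the table and 37 were tested. Of these, 10 (27.0%) were called lower and 4 (10.8%) higher, against 10.4% and 10.3% of all tested genes, so the share called higher was that of the background. The median difference was -0.43. Of the 4 called higher, 2 had a control set 2 mean below the filter, and of the 10 called lower, 4 had a control set 1 mean below it. Without control set 1 replicate 2, 3 were called higher and 6 lower. Summed over the 58, they reached 7379 and 8013 CPM in control set 1, against 10730 and 10542 CPM in control set 2. The 21 members below the filter summed to 229.5 and 231 CPM in control set 1, against 420.0 and 600.3 CPM in control set 2, and 17 of them had the lower mean in control set 1, against 37.6% of all untested genes. In bulk libraries, fewer cells of a type and less RNA per cell cannot be told apart.

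The 4 members higher in control set 1 encode plasma proteins known to increase in the hepatic acute-phase response. Saa1, serum amyloid A1, was at 197 and 432 CPM in control set 1, against 4.52 and 0 CPM in control set 2 (7.18, SE 0.83, adjusted p = 0.00105). This is 2327 pooled counts in control set 1, against 1 count in control set 2, a rate ratio on TMM-adjusted totals of 142 with a 95% exact interval of 25.4 to 5597 that covers counting error only. Its neighbour Saa2 was at 103 and 269 CPM in control set 1, against 0 and 3.92 CPM in control set 2, a ratio of 83.0 (14.9 to 3279). The 2 genes are near-identical paralogs, so reads may be shared between them. In both genes control set 1 replicate 2 was more than 2-fold above replicate 1, unlike most immediate early genes, where replicate 1 was the higher.

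Hp, haptoglobin, was at 342 and 586 CPM in control set 1, against 154 and 145 CPM in control set 2 (1.64, SE 0.32, adjusted p = 0.0100). Hpx, hemopexin, was at 439 and 580 CPM in control set 1, against 248 and 271 CPM in control set 2 (0.97, SE 0.26, adjusted p = 0.0261). Saa1 kept its call under all 14 alternatives, and Hp lost it only with limma-voom. Other genes of the acute-phase response, picked out after their values were seen, were not called: Fgb had a difference of 0.48, Fgg of 0.20, Orm1 of -0.16 and Itih4 of -0.33.

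The 10 members lower in control set 1 include genes of plasma proteins and of metabolic enzymes. Apoa1, the main protein of high-density lipoprotein, was at 349 and 252 CPM in control set 1, against 1382 and 1349.6 CPM in control set 2 (-2.18, SE 0.24, adjusted p = 0.000784). Car3, a carbonic anhydrase, was at 23.0 and 17.9 CPM in control set 1, against 230.3 and 184 CPM in control set 2 (-3.33, SE 0.34, adjusted p = 0.000578). Fabp1, the liver fatty acid-binding protein, was at 106 and 116 CPM in control set 1, against 275 and 349 CPM in control set 2 (-1.50, adjusted p = 0.00802). In each, every control set 1 library lay below every control set 2 library by more than 2-fold.

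Kng1, kininogen, was at 77.3 and 85.7 CPM in control set 1, against 275 and 271 CPM in control set 2 (-1.74, adjusted p = 0.00391). Alb, albumin, was at 1297 and 1233 CPM in control set 1, against 2005 and 2154 CPM in control set 2 (-0.72, SE 0.19, adjusted p = 0.0245). Hpd, Ttc36, Ttr and Ahsg had differences between -1.79 and -0.97. Apoa1, Car3, Fabp1, Kng1 and Ttr kept their calls under all 14 alternatives. Apoa2 (-0.83), Apoc3 (-0.87) and Mup3 (-0.57) did not pass the test, and the Serpina1 genes ran from 0.61 (Serpina1e) to -0.60 (Serpina1c).

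Mup8, a major urinary protein gene of the pheromone-carrier family secreted by male liver, was not on the list and had the largest difference of all. It was at 239 and 337 CPM in control set 1, against 0 counts in both control set 2 libraries. Against a floor of 3 pooled counts in control set 2 (6.30 CPM), it was at least 44.6-fold higher in control set 1, and the lower limit of the exact 95% interval of the ratio was 36.3. The major urinary protein genes are near-identical copies, and Mup3 and Mup20, which are on the hepatocyte list, had differences of -0.57 and 0.14, so the Mup8 value is uncertain where reads were split among copies.

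**Figure D3:**
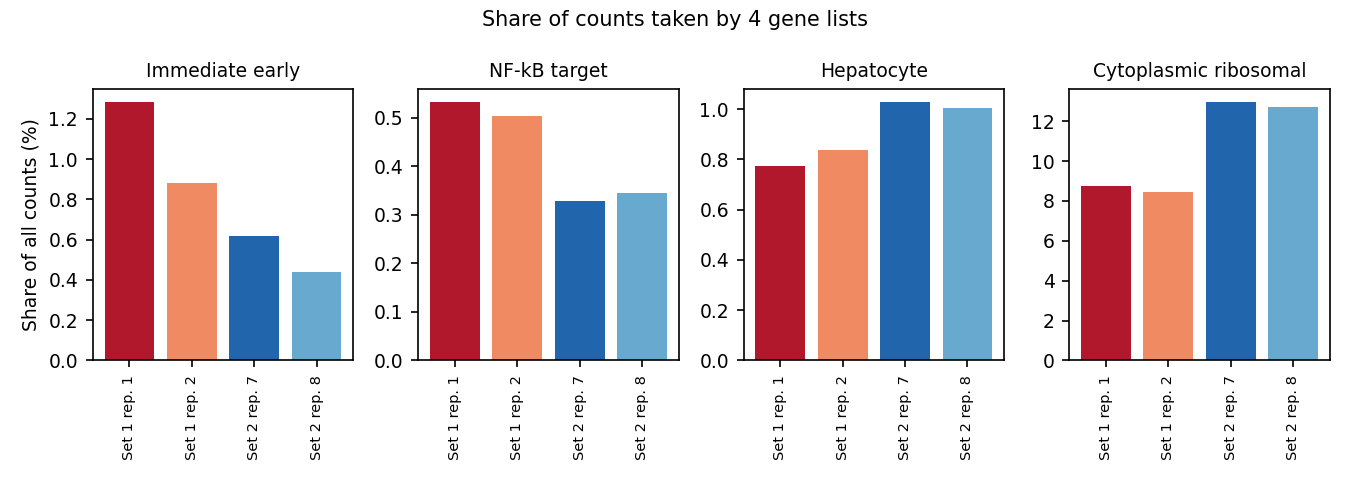
Bars give the percent of all counts in a library taken by the members of 4 gene lists, with control set 1 to the left of control set 2 and a separate axis from 0 in each panel. Ribosomal protein genes took 8.76% and 8.44% in control set 1, against 12.97% and 12.72% in control set 2, and the immediate early and NF-kB target shares were higher in control set 1.

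Cytoplasmic ribosomal protein transcripts took a smaller share of counts in control set 1, and most that passed the test were lower. Of 83 listed genes, 80 were in the table and 73 were tested; 32 were called lower and 3 higher, against 10.4% and 10.3% of all tested genes, with a median difference of -0.62 and 62 of the 73 negative. They took 8.76% and 8.44% of counts in control set 1, against 12.97% and 12.72% in control set 2, a gap much wider than that within either set. The small subunit had 13 of 31 tested members called lower and 2 higher (median -0.48), and the large subunit had 19 of 42 called lower and 1 higher (median -0.67).

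Of the small subunit, Rps28 was at 881 and 854 CPM in control set 1, against 3044 and 2817 CPM in control set 2 (-1.76, SE 0.19, adjusted p = 0.000784). Rps24 was at 1462 and 1444 CPM in control set 1, against 3518 and 3602 CPM in control set 2 (-1.29, SE 0.18, adjusted p = 0.00282). Rps25 was at 391 and 499.6 CPM in control set 1, against 1143 and 1087 CPM in control set 2 (-1.32, adjusted p = 0.00703). Libraries of a set were close to each other in all 3 genes, at more than 2-fold from the other set.

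Of the large subunit, Rpl38 was at 912 and 1177 CPM in control set 1, against 2895 and 3323 CPM in control set 2 (-1.57, SE 0.21, adjusted p = 0.00233). Rplp2, an acidic stalk protein, was at 1497 and 1285 CPM in control set 1, against 3450.2 and 3927 CPM in control set 2 (-1.41, SE 0.19, adjusted p = 0.00250). Rpl37 was at 1846 and 1647 CPM in control set 1, against 4082 and 4214 CPM in control set 2 (-1.25, adjusted p = 0.00347). The paralog-like Rpl22l1 had the lowest value, at 15.6 and 1.79 CPM in control set 1, against 72.3 and 105.9 CPM in control set 2 (-3.29, SE 0.81, adjusted p = 0.0245). Its value was -5.57 without control set 1 replicate 1 and -2.51 without control set 1 replicate 2. Rpl22l1 passed the filter only through control set 2 and lost its call with limma-voom and under both GC and length offsets (adjusted p = 0.0604, 0.136 and 0.0887).

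The direction was not shared by all subunits. Rps14 was at 2388 and 1888 CPM in control set 1, against 1169.6 and 765 CPM in control set 2 (1.15, adjusted p = 0.0119), Rpl7 had a difference of 1.34 and Rps2 of 0.77. None of these 3 kept its call in all 4 fits that left out a library. Rplp0, the central stalk protein, had a difference of -0.05 and Rpl32 of -0.23. Processed pseudogenes can share reads with these genes, and the annotation holds 24 named after Rpl31 and 11 named after Rps2. Those under other symbols were not counted.

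The 7 members below the filter include Rps15a, Rps27 and Rpl34, constitutive subunits that had between 3 and 13 counts in each control set 1 library, against 0 counts in both control set 2 libraries.

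Of 68 tested nuclear-encoded respiratory chain genes, 23 (33.8%) were called lower and 3 (4.41%) higher, against 10.4% and 10.3% of all tested genes, with a median of -0.32. Of the 23, 10 kept their call whichever library was left out, 12 kept it after the 3′-end offset described next, and 5 under all 14 alternatives. Atp5k, an ATP synthase subunit, was at 236 and 316 CPM in control set 1, against 1355 and 1126 CPM in control set 2 (-2.17, SE 0.24, adjusted p = 0.000895). Ndufa5, a complex I subunit, was at 95.6 and 92.8 CPM in control set 1, against 357 and 443 CPM in control set 2 (-2.09, SE 0.26, adjusted p = 0.00194). The 3 called higher were Atp5f1 (1.27), Atp5a1 (1.24) and Uqcrc2 (1.06). Of 42 tested mitochondrial ribosomal genes, 4 were lower and 0 higher (median -0.27), led by Mrpl52 (-1.39) and Mrps34 (-1.31). That share, 9.52%, is close to the 10.4% of all tested genes called lower, and it was 1 gene when control set 1 replicate 1 or 2 was left out and 0 genes after the 3′-end offset described next.

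**Figure D4:**
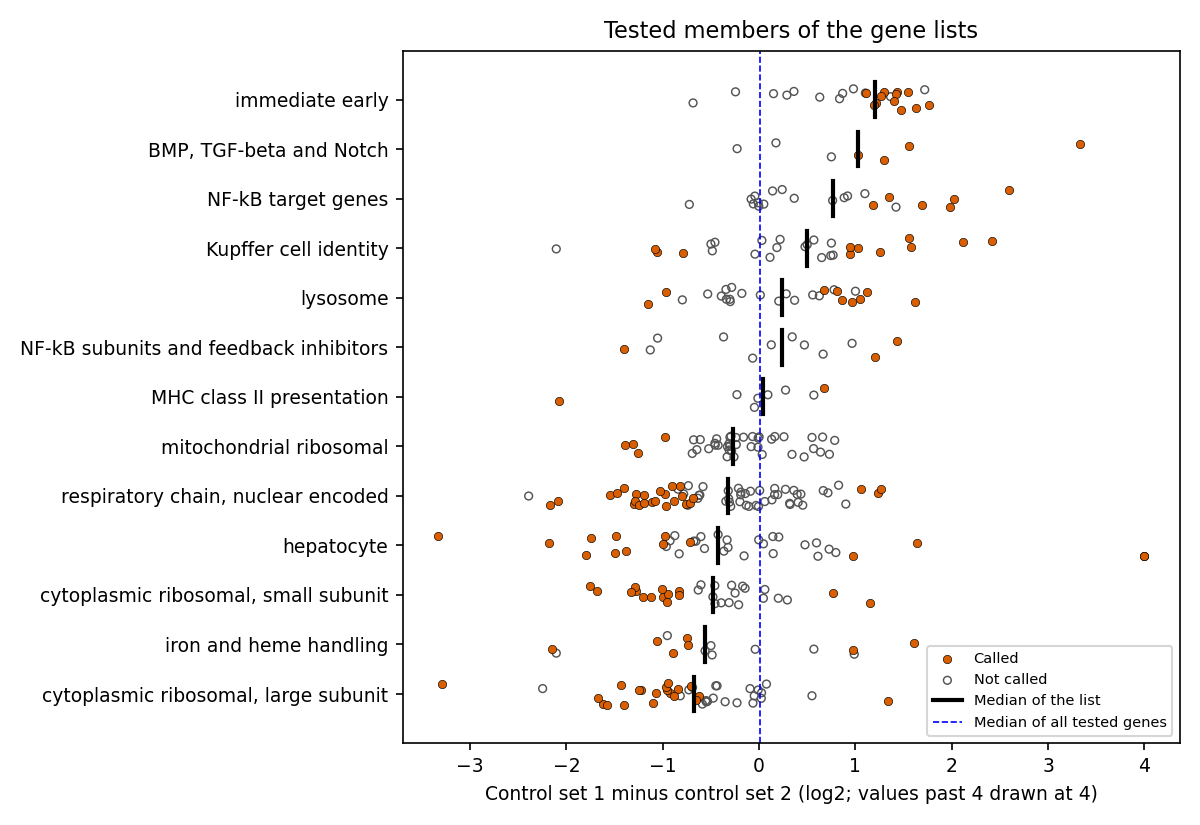
Each circle is a tested member of a gene list at its log2 difference, control set 1 minus control set 2, filled where called; black bars are list medians and the dashed line is the median of all tested genes. List medians run from 1.20 for immediate early genes to -0.67 for large subunit ribosomal protein genes, and Saa1 and Saa2 are drawn at 4.

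Transcript features moved with the set difference. Tested genes were split into 5 equal groups by the GC content of the last 300 bases of the annotated transcript, where a 3′ method reads. From the lowest to the highest GC group, the median difference was 0.32, 0.25, 0.02, -0.07 and -0.29. Calls higher in control set 1 made up 18.0% of the lowest group and 4.03% of the highest, and calls lower made up 5.21% of the lowest and 18.0% of the highest. By transcript length, the shortest group had a median of -0.23 with 18.8% called lower, and the longest had 0.14 with 6.89% called lower. With ribosomal protein genes left out, the shortest group still had a median of -0.18.

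The gene lists differed in these features. Tested immediate early genes had a median 3′-end GC content of 41.3%, against 46.3% over all tested genes, and NF-kB targets had 42.3%. Ribosomal genes were near the overall value (47.0% for the small and 46.3% for the large subunit) but short, with 24 of 31 and 36 of 42 in the shortest group by length. After a per-library offset for 3′-end GC content and length, chosen after seeing the data, the median was 1.05 for immediate early genes, 0.46 for NF-kB targets and -0.29 for hepatocyte genes. The ribosomal median was -0.36 with 22 members called lower and 5 higher. With the offset for GC content and length of the whole transcript, 19 ribosomal genes were called lower and 4 higher.

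**Figure D5:**
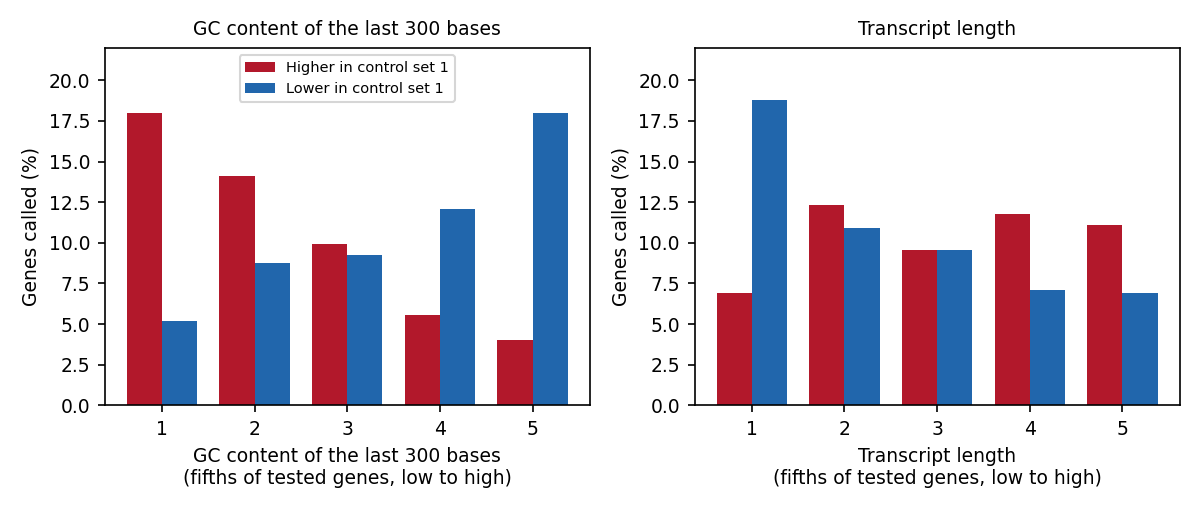
Bars give the percent of tested genes called higher (red) and lower (blue) in control set 1, in 5 equal groups by the GC content of the last 300 bases (left) and by transcript length (right), low to high. Higher calls go from 18.0% to 4.03% across the GC groups, lower calls from 5.21% to 18.0%, and lower calls are most frequent, 18.8%, among the shortest transcripts.

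More of the tested Kupffer cell identity genes were called higher than lower in control set 1. Of 27 tested members of 34 listed, 8 (29.6%) were called higher and 3 (11.1%) lower, against 10.3% and 10.4% of all tested genes, so the share called lower was close to the background. The median was 0.50, and the 31 members in the table summed to 46678 and 45347 CPM in control set 1, against 42021 and 39966 CPM in control set 2. Paqr9, a membrane receptor-like protein, was at 88.9 and 114 CPM in control set 1, against 18.1 and 19.6 CPM in control set 2 (2.42, SE 0.44, adjusted p = 0.00850), and passed the filter only through control set 1. Cdh5, VE-cadherin, was at 351 and 370.1 CPM in control set 1, against 126 and 43.2 CPM in control set 2 (2.11, SE 0.40, adjusted p = 0.00883). In both genes the sets did not overlap.

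Of the gate markers, 1 was called higher and 1 lower. Clec1b, which encodes the gate marker CLEC2, was at 866 and 925 CPM in control set 1, against 510.3 and 424 CPM in control set 2 (0.94, adjusted p = 0.0178), and lost its call without control set 2 replicate 8. Timd4, which encodes the gate marker TIM4, was at 539 and 473 CPM in control set 1, against 768 and 977 CPM in control set 2 (-0.79, adjusted p = 0.0357). Timd4 lost its call under 5 of 14 alternatives, among them those without control set 1 replicate 2 and without control set 2 replicate 8. Cd163, the haptoglobin-haemoglobin receptor, was at 553 and 452 CPM in control set 1, against 1106 and 989 CPM in control set 2 (-1.06, adjusted p = 0.0114). The gate markers Clec4f (0.22), Vsig4 (0.50) and Adgre1 (0.44) were not called. Ptprc, which encodes CD45, had a difference of 0.58 (adjusted p = 0.163), and Itgam and Ly6c2 were below the filter in all libraries. Slc40a1, the iron exporter ferroportin, was at 498 and 118 CPM in control set 1, against 1309.6 and 1346 CPM in control set 2 (-2.11, adjusted p = 0.124), with its control set 1 libraries far apart.

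Genes of the BMP, TGF-beta and Notch pathways, which maintain Kupffer cell identity in the mouse, were higher in control set 1 where they passed the test. Of 7 tested genes of 20 listed, 4 were called higher and 0 lower (median 1.03), against 10.3% and 10.4% of all tested genes, and 2 of the 4 had a control set 2 mean below the filter. Id2, an inhibitor of basic helix-loop-helix factors, was at 735 and 835 CPM in control set 1, against 81.3 and 74.5 CPM in control set 2 (3.33, SE 0.28, adjusted p = 0.000314). Its relative Id3 was at 2992 and 2575 CPM in control set 1, against 1603 and 1126 CPM in control set 2 (1.03, SE 0.22, adjusted p = 0.0119). Hes1, a Notch target, had 1.55 and Tgfbr2, a TGF-beta receptor subunit, had 1.30. Id2 alone of the 4 kept its call whichever library was left out, and without control set 1 replicate 2 only 2 members were called.

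The largest differences outside these lists were in single genes. Prcp, a lysosomal carboxypeptidase, was at 75.1 and 86.3 CPM in control set 1, against 4.52 and 3.92 CPM in control set 2, a pooled rate ratio of 19.0 (95% exact interval 5.24 to 157). H3f3a, which encodes histone H3.3, was at 348 and 484 CPM in control set 1, against 49.7 and 27.5 CPM in control set 2 (3.45, adjusted p = 0.000784); an antisense gene overlaps it and 2 pseudogenes bear its name. Chp2 (3.31), Rbms1 (2.99), Ms4a6b (2.91) and Slc8b1 (2.89) complete the 10 largest higher differences. All of these 10 but Id2 had a control set 2 mean below the filter and passed it only through control set 1. Rbms1 rests on 7 and 0 counts in control set 2, gave 1.90 without control set 2 replicate 8, has no bounded value without replicate 7, and was not called with DESeq2 or limma-voom (adjusted p = 0.296 and 0.0583). Ms4a6b rests on 1 and 4 counts there and gave 2.33 without control set 2 replicate 7, against 4.11 without replicate 8. Chp2 lost its call when control set 2 replicate 7 or replicate 8 was left out, as did Saa2.

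Of the 10 largest lower differences, Fbxo5, which encodes the cell cycle regulator EMI1, was at 8.72 and 6.57 CPM in control set 1, against 126 and 184 CPM in control set 2 (-4.33, adjusted p = 0.000314). Clec2d, a C-type lectin-like gene, was at 99.7 and 91.6 CPM in control set 1, against 519 and 643 CPM in control set 2 (-2.60, adjusted p = 0.000570). All of these 10 but Clec2d and Mir682 had a control set 1 mean below the filter and passed it only through control set 2. Snhg9 (-3.09) lies on the opposite strand of Rps2, and Abhd11os (-2.42) on that of Abhd11, so their reads cannot be told apart from those of their partners without strand. With the GC and length offset Snhg9 had -1.58. The miRNA loci named Mir692-1 (-3.40) and Mir682 (-2.44) passed the test but lost their calls under both GC and length offsets (adjusted p = 0.0547 and 0.279 with the whole-transcript offset, at -1.34 and -0.34). A call here says nothing of the mature miRNAs in a method that reads polyadenylated 3′ ends.

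Single libraries decided the values of Gapdh and Gon4l. Gapdh, a glycolytic enzyme, was at 2.91 and 5.37 CPM in control set 1, against 13.5 and 239 CPM in control set 2 (-4.99, adjusted p = 0.0411), and it gave -1.73 with adjusted p = 0.744 without control set 2 replicate 8. The annotation lists 2 pseudogenes named after Gapdh and places Iffo1 on the opposite strand, and their part in its value was not tested. Pseudogenes under other symbols were not counted. Gon4l was at 23.0 and 12.2 CPM in control set 1, against 31.6 and 157 CPM in control set 2 (-2.43), and it gave -0.82 with adjusted p = 0.579 without control set 2 replicate 8. Gon4l also lost its call without control set 1 replicate 2 (-2.05, adjusted p = 0.120).

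Cd74, the MHC class II invariant chain, was the most abundant gene with a difference of more than 2-fold. It was at 2831 and 3035 CPM in control set 1, against 11231 and 13508 CPM in control set 2 (-2.08, SE 0.18, adjusted p = 0.000314). No other MHC class II presentation gene of the 8 tested was called lower, and Ctss, the protease that trims the invariant chain, was called higher (0.68, adjusted p = 0.0314). Each direction thus held 12.5% of the tested list, close to the 10.3% called higher and 10.4% called lower of all tested genes. Ctss lost its call without control set 1 replicate 2 and when control set 2 replicate 7 or replicate 8 was left out.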

How the data were processed

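Kupffer cell libraries were made with a bulk 3′ MARS-Seq protocol with molecular identifiers, per the labels' protocols. The authors deposited raw counts per gene, identifier-corrected per the table's name; cutadapt, HTSeq, DESeq2 and genome build mm10 are named in the submitters' processing notes, and no source used here gives the aligner, versions, strand setting or treatment of shared reads. The normalized counts of the same table, and the 3 Commd10-deficient libraries, were not used. Raw counts of the 4 control libraries were tested with edgeR 4.0.16 (TMM, robust quasi-likelihood F test, Benjamini-Hochberg adjustment, call at 0.05) in R 4.3.3, after a filter at a mean of 43.3 CPM; standard errors come from the F statistic, and intervals and floors cover counting error only. Alternatives were 2 filters, 2 scalings, DESeq2 1.42.0, limma-voom 3.58.1, thinning of control set 1 to 249248 counts, a composition correction, 2 GC and length offsets (the 3′-end offset was chosen after seeing the data) and leaving out each library. The procedure was tested on simulated counts that had the same relative spread for every gene and no GC or length trend. That test does not show how often calls are false in these libraries. An exact permutation test of 2 against 2 libraries cannot give a two-sided p below 0.333, so none was used. GENCODE M21 (GRCm38) matched 10148 of 10550 symbols and supplied lengths and GC content. Genes named are the 10 largest called differences per direction whose sets do not overlap (clone-like symbols excepted), the 6 smallest p of each main list, 3 of each ribosomal list and 2 of every other list, besides the gate markers; other named members were chosen after their values were seen, and a few genes that the rule names are not reported here. The members and 38 gene lists were chosen with earlier results of these data known.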

Additional observations from a re-analysis of the deposited data

How the results depend on the processing

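No paired analysis was possible because the sets share no replicate number. Counts of calls, 637 in all (317 higher, 320 lower), ran from 509 to 807 over the other filters, scalings and corrections and DESeq2. With limma-voom, 317 genes were called (104 higher, 213 lower), of which 315 were among the 637; it called 6 immediate early, 1 NF-kB subunit or inhibitor, 2 NF-kB target and 8 hepatocyte genes. The cause was not tested. With library totals alone as the scaling, the median of all genes moved to 0.14 and the split to 420 higher and 247 lower (63.0% higher, against 49.8%). The GC and length offset left 23 ribosomal genes called, and under it and the 3′-end offset, chosen after seeing the data, the log2 difference of Apoc1 turned to 0.54 and 0.55 (-0.07 without an offset). The 3′-end offset turned the log2 difference of Uqcr11 to 0.75 (-0.14 without an offset). Leaving out each library in turn gave 318 to 810 calls (142 to 425 higher, 176 to 385 lower), with fewer calls where a control set 1 library was left out; a lone library is then assumed to vary like the other set. The same fits gave 7 to 17 immediate early genes, 2 to 5 NF-kB subunit or inhibitor genes, 4 to 7 NF-kB targets, 9 to 14 hepatocyte genes and 29 to 41 ribosomal genes. With edgeR's default filter 8002 genes were tested, 564 called, and 427 of the 637 kept their call. Control set 2 limits detection: 7485 genes were below the filter, and in its replicate 7 a level of 13.55 CPM was only 3 counts.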

Other observations

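Of 26 tested lysosomal genes, 7 (26.9%) were called higher in control set 1 and 2 (7.69%) lower, against 10.3% and 10.4% of all tested genes, with a median of 0.24. None of the 10 tested autophagy genes was called, at a median of 0.32 with 8 positive. Ctsc, a protease that activates other proteases, was at 2318 and 2729 CPM in control set 1, against 1260.0 and 1330.0 CPM in control set 2 (0.96, adjusted p = 0.0105). Ctsl, a cysteine protease, had 1.13, Npc2, a cholesterol carrier that passed the filter only through control set 1, 1.62, and the lower genes were Ctsz (-0.97) and Mcoln1 (-1.15). Of 15 tested iron and heme genes, 5 (33.3%) were lower and 2 (13.3%) higher, with a median of -0.56. Tfrc, the transferrin receptor, was at 19.2 and 29.0 CPM in control set 1, against 94.8 and 118 CPM in control set 2 (-2.15, adjusted p = 0.00745), and passed the filter only through control set 2. Pcbp1, an iron chaperone, was called higher (1.61). Of 10 tested genes of lipid efflux, 3 (30.0%) were lower and 1 higher. Pltp, the phospholipid transfer protein, was at 1265 and 1037 CPM in control set 1, against 3170.2 and 3994 CPM in control set 2 (-1.64, adjusted p = 0.00194), and Apoe had -0.62. Of 12 tested complement genes, 4 (33.3%) were lower and 0 higher (among them C2 -1.09, C3 -0.96 and Cfp -0.70), and 2 were called when control set 1 replicate 2 or control set 2 replicate 8 was left out. Without control set 1 replicate 2, 5 lysosomal and 4 iron and heme genes were called, and without control set 1 replicate 1, 2 lipid efflux genes were.

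Of 14 tested interferon response genes, 3 (21.4%) were called higher (Ifit2 1.69, Ifit3 1.36 and Cxcl10 1.18) and 1 (7.14%) lower, against 10.3% and 10.4% of all tested genes. Ifit2 passed the filter only through control set 1, and Cxcl10 is also on the NF-kB target list. Summed levels of the 25 listed genes went the other way, at 7919 and 6734 CPM in control set 1, against 9940 and 10483 CPM in control set 2. Ifitm3, an antiviral membrane protein, was at 1747 and 1238 CPM in control set 1, against 4435 and 4892 CPM in control set 2 (-1.64, adjusted p = 0.00209). Without control set 1 replicate 1, none of the list was called higher. Of 8 tested inflammasome genes, 1 in each direction was called (12.5%), Il18 (1.64) and Casp4 (-1.30), and neither was called without control set 1 replicate 1. Plac8, on the monocyte list, was at 582 and 979 CPM in control set 1, against 212 and 373 CPM in control set 2 (1.41, adjusted p = 0.0178; not called without control set 1 replicate 2). Eng was the only gene called of 8 tested on the endothelial list (-1.48), 12.5% against 10.4% of all tested genes called lower. The endothelial list summed to 1707 and 1654 CPM in control set 1, against 1906 and 1946 CPM in control set 2. Ecm1 (-1.12) and Pf4, a platelet chemokine (-1.42), were the only tested members of the stellate and the platelet and red cell lists. Of the 4 other counted members of the Pf4 list, 3 had the higher mean in control set 1. Pf4 kept its call under 10 of 14 alternatives. Of 30 tested proteasome genes, 5 (16.7%) were lower and 1 (3.33%) higher, which in both directions together is close to the 20.8% of all tested genes, and 3 were called when control set 1 replicate 1 or 2 was left out. Psmb7 (-1.57) and Psmd4 (-1.32) had the smallest p. Of 26 tested translation factors 3 were called higher, among them Eef1a1 (1.00), and 1 lower, and of 16 tested splicing factors 2 were called higher, Ddx17 (1.69) and Srrm1 (1.49), shares of 15.4% and 12.5% that are below that of all tested genes. When control set 1 replicate 1 or 2 was left out, 1 gene of each of these lists was called. Srrm1 lost its call under 7 of 14 alternatives and Eef1a1 under 2. The nuclear RNA Malat1 was called higher (1.35) and Neat1 was not called (-0.78). The heat shock gene Hspa1b was at 138 and 738 CPM in control set 1, against 85.8 and 27.5 CPM in control set 2, and was not called (2.98, adjusted p = 0.162). None of the 5 tested heat shock genes was called, but 3 were called higher without control set 1 replicate 1 and 2 lower without control set 1 replicate 2.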
